A study of Homo sapiens with 12 samples.

Results

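The 10 genes described here, ANKRD1, CRIM1, AMOTL2, NUAK2, F3, AXL, ARHGEF17, AMOTL1, PTPN14 and MYOF, are transcripts commonly listed as YAP and TEAD targets other than the CCN family. They were found by their symbols among the 58051 genes of the deposited count table, each on a single line, and all 10 passed the filter on low counts in every comparison. The cells were MDA-MB-231, a triple-negative breast cancer line, transfected with a non-targeting siRNA pool (siControl), a pool against NELFA (siNELFA), a pool against YAP1 (siYAP) or both pools (siNELFA+siYAP). Each group had 3 libraries, the labels name no transgene or engineered deletion, and the siRNA pools lower their targets without removing them. The labels give 50 to 100 nM of siRNA and RNA taken at 48 h and 72 h, and the paper's methods give 72 h for sequencing. The question put to each gene was whether its level followed the loss of YAP1, the loss of NELFA, or both.

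YAP is a transcriptional co-activator that has no DNA-binding domain of its own and reaches promoters and enhancers through the TEAD factors. The Hippo kinases hold it in the cytoplasm, and several of its targets, among them the AMOTL genes and PTPN14, encode proteins that bind YAP and restrain it. NELFA is a subunit of NELF, the complex that holds RNA polymerase II shortly after it starts transcription. MDA-MB-231 is known for high YAP activity.

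The levels in siControl were compared per length, in TPM. AXL had 332 ± 80.3 TPM (SD, n = 3), F3 317 ± 186, ANKRD1 228 ± 38.0 and MYOF 172 ± 39.6. CRIM1 and PTPN14 had 91.5 ± 11.6 and 89.1 ± 16.2 TPM. AMOTL2, AMOTL1 and ARHGEF17 followed with 42.3 ± 14.5, 28.9 ± 8.09 and 15.2 ± 1.39 TPM, and NUAK2 was lowest with 3.05 ± 0.945 TPM. The neighbours AXL and F3, F3 and ANKRD1, CRIM1 and PTPN14, and AMOTL2 and AMOTL1 differed by less than the larger SD of each pair.

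All 10 genes are protein-coding, and their positions are from GENCODE on GRCh38. ANKRD1 (ENSG00000148677) lies at chr10:90912096-90921087 on the minus strand and MYOF (ENSG00000138119) at chr10:93306429-93482334 on the same strand. CRIM1 (ENSG00000150938) lies at chr2:36355778-36551135 and AXL (ENSG00000167601) at chr19:41219223-41261766, both on the plus strand. AMOTL2 (ENSG00000114019) lies at chr3:134355347-134375479 on the minus strand, and AMOTL1 (ENSG00000166025) at chr11:94706431-94876748 and ARHGEF17 (ENSG00000110237) at chr11:73308276-73369388 on the plus strand. F3 (ENSG00000117525) at chr1:94529173-94541759, NUAK2 (ENSG00000163545) at chr1:205302063-205321745 and PTPN14 (ENSG00000152104) at chr1:214348700-214552449 are all on the minus strand. CRIM1 overlaps FEZ2 on the opposite strand, which had 537 to 1465 counts per library. AMOTL2 overlaps the pseudogene RPL39P5 on its own strand (99 to 323 counts) and PTPN14 a long non-coding RNA on its own strand (75 to 266 counts). The strand setting of the authors' counting is not given in the sources used here, so how reads shared by CRIM1 and FEZ2 were counted is not known. For AMOTL2 and PTPN14 the strand cannot tell the gene from its neighbour. How many reads of these 3 genes this affects was not measured.

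The promoters of 3 targets are printed because they carry the letters bound by TEAD factors (GGAATG) or by AP-1 (TGANTCA), the partner factor often found beside TEAD. RefSeq windows (GRCh38.p14) of 250 bases before and 50 bases after the start were searched on both strands. Of the 10 genes, 8 matched windows, and CRIM1 and ARHGEF17 did not. The 250 bases before the start are shown, with each match in capitals, on whichever strand it was read.
ANKRD1 (chr10:90921088-90921337, minus strand): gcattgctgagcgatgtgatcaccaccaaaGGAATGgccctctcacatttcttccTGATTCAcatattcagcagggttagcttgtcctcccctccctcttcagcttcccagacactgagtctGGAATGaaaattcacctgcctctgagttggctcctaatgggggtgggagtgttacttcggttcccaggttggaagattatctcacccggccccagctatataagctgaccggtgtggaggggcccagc
NUAK2 (chr1:205321746-205321995, minus strand): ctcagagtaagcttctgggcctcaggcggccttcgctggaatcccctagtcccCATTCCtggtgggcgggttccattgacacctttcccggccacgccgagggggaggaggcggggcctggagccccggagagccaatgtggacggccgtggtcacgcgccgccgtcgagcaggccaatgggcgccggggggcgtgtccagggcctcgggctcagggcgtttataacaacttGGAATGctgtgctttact
F3 (chr1:94541760-94542009, minus strand): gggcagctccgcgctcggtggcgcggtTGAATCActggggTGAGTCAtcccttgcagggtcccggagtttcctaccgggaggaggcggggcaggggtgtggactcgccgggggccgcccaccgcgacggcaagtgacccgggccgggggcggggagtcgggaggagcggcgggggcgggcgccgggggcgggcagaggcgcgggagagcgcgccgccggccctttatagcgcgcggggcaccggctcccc
The ANKRD1 window holds GGAATG starting at positions -220 and -128 from the start and the AP-1 letters between them, at -195. NUAK2 holds CATTCC, the reverse complement of the TEAD letters, at -197 and GGAATG at -18, and F3 holds 2 AP-1 matches, at -223 and -210, and no TEAD match. The TEAD letters were also in a window of PTPN14, of AMOTL2 and of AXL, so they were in 5 of the 10 windows of the 8 genes, against 14.0% of all 35116 windows. The AP-1 letters were in 2 of the 10 windows, against 7.71% of all. The letters overlap no other match in these windows, and a match is a description of the sequence, not evidence of binding.

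The libraries held 9608145 to 18803104 counts, and levels are given as CPM, the count scaled to a TMM-normalized library size of 1000000, always in the order of replicates 1, 2 and 3. Both siRNA pools lowered their targets. YAP1 had 302, 269 and 247 CPM in siControl replicates 1, 2 and 3 and 46.2, 45.5 and 37.7 in siYAP (log2 fold change -2.67 ± 0.19 SE, edgeR adjusted p = 0.0162). NELFA had 25.3, 27.5 and 27.9 in siControl and 9.96, 9.05 and 7.11 in siNELFA (log2 fold change -1.63 ± 0.21, edgeR adjusted p = 0.381, or 0.000385 in a fit blocked by replicate number). With both pools, YAP1 was at 44.1, 40.7 and 40.1 CPM and NELFA at 8.20, 6.73 and 6.35 (edgeR adjusted p = 0.00118 and 0.0199). WWTR1, which encodes TAZ, the paralog of YAP, had a mean of 86.3 ± 3.85 in siControl and 94.9 ± 17.6 in siYAP, and the groups overlapped. VIM and CD44, mesenchymal markers of this line, were at 750 to 1181 and 575 to 1170 TPM and EGFR at 76.4 to 126 TPM. Of the markers this line should lack, ESR1 and PGR had at most 6 and 4 counts per library, but ERBB2 had 422 to 1474 (15.7 to 29.4 TPM) and EPCAM 60 to 197 (4.34 to 19.2 TPM). Among markers of other cell types, PTPRC had at most 4 counts, COL3A1 at most 10 and PECAM1 30 to 85. The replicate 1 libraries of siControl, siNELFA and siYAP stood apart. CDH1, an epithelial cadherin that this line is known to lack, had 169 to 599 counts in these 3 libraries and 0 to 17 in the other 9, and its part in the results was not tested. In these 3 groups replicate 1 was above the mean of replicates 2 and 3 for ANKRD1, CRIM1, F3 and MYOF, and below it for AXL, AMOTL1, AMOTL2 and PTPN14. Values without these libraries, or with the replicate number as a block, are given beside the results whose call or size they change most. The block could be used among these 3 groups only, because the numbers do not pair the siNELFA+siYAP libraries with the rest. That the numbers pair replicates 2 and 3 of siControl, siNELFA and siYAP was not shown, so calls made only with the block rest on an unchecked pairing. The siNELFA+siYAP libraries are named as 1 to 3 under the number 1, so their spread may be technical and p-values with this group too small.

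**Figure D1:**
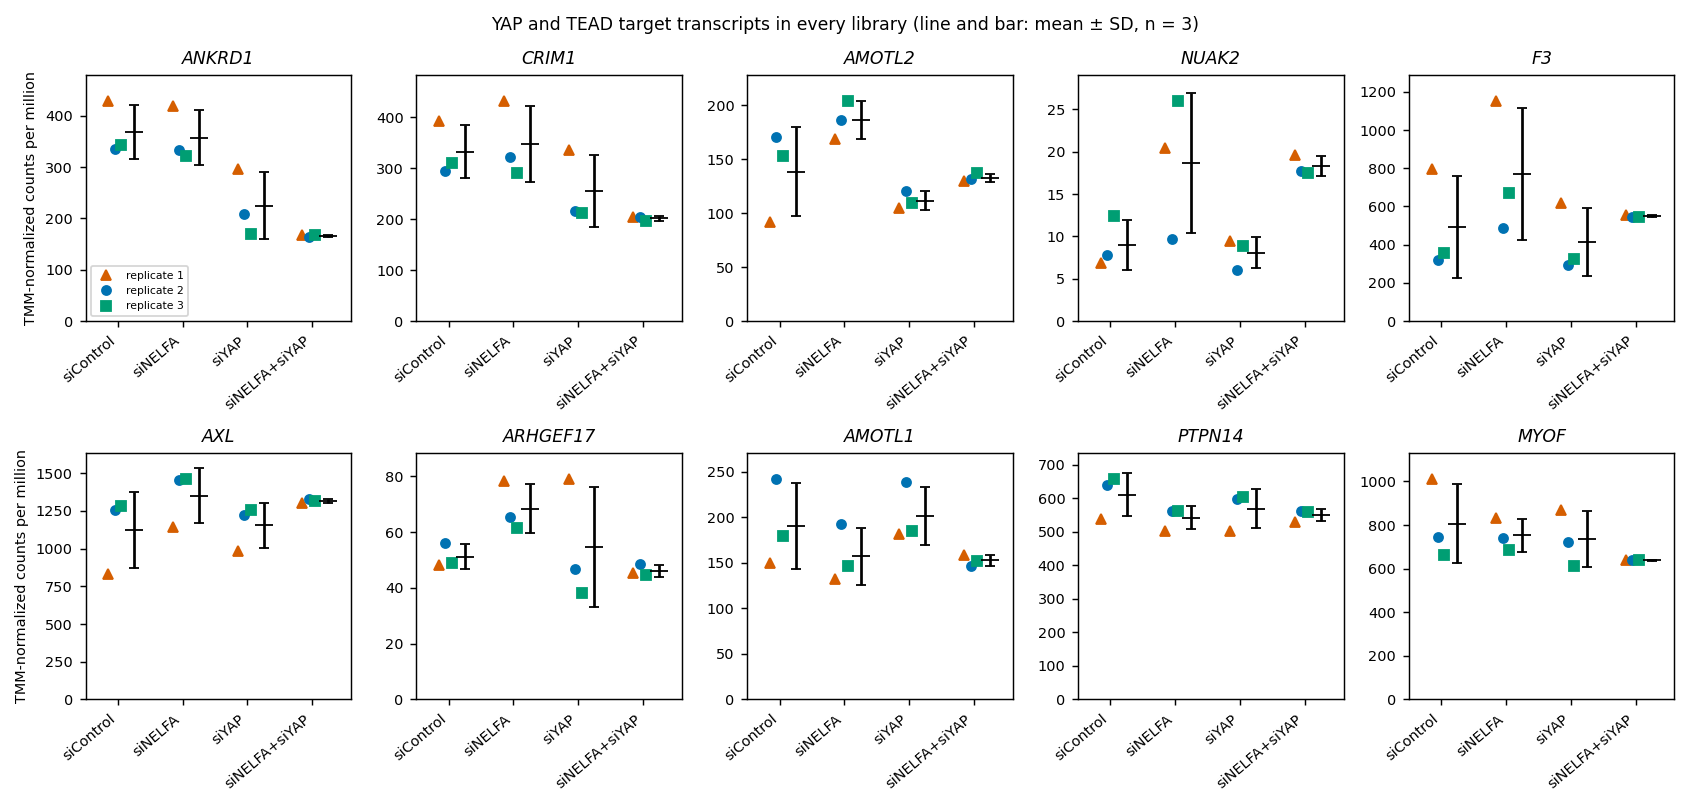
TMM-normalized CPM of the 10 targets in the 12 libraries (vertical axes, starting at 0) by siRNA group, with symbols for replicates 1, 2 and 3 and the mean ± SD (n = 3) beside them. ANKRD1 and CRIM1 are lowest in siNELFA+siYAP, NUAK2 is above 17 in all 3 siNELFA+siYAP libraries, and replicate 1 lies apart from replicates 2 and 3 in the first 3 groups for most genes.

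ANKRD1 was lower in both groups that received the YAP1 pool and close to siControl in siNELFA. It encodes an ankyrin repeat protein of muscle and stressed cells and is a standard readout of YAP. ANKRD1 had 429, 335 and 343 CPM in siControl, 418, 334 and 321 in siNELFA and 297, 208 and 170 in siYAP. With both pools it had 167, 163 and 167. All siYAP libraries were below all siControl libraries, and all siNELFA+siYAP libraries were below all siYAP libraries, the highest of the former (167) just under the lowest of the latter (170), while siControl and siNELFA overlapped. The mean in siNELFA+siYAP was 45.0% of that in siControl, the one difference from siControl among the 10 genes that passed the test (log2 fold change -1.17 ± 0.13, edgeR adjusted p = 0.0317). As the spread of the siNELFA+siYAP libraries may be technical, this p-value and the others of this comparison may be too small. Of all genes tested, 0.428% passed in this comparison, where DESeq2 called 7.69%. DESeq2 gave the same call with an adjusted p = 1.87e-09, and without siControl replicate 1 edgeR gave -1.03 ± 0.05 with an adjusted p = 9.2e-09. The call was lost without siControl replicate 2 (adjusted p = 0.14) or without any siNELFA+siYAP library (0.363 to 0.389). It was also lost with the replicate block (adjusted p = 0.194), though the numbers do not pair these groups, and with limma on the TPM (0.102 and 0.127 with pseudocounts of 1 and 0.1). In siYAP the log2 fold change was -0.72 ± 0.24 (edgeR adjusted p = 1.00), -0.75 ± 0.11 with the block (adjusted p = 0.189), and the ratio to the siControl library of the same number was 0.693, 0.623 and 0.496. Within siNELFA alone it was -0.04 ± 0.18. In bulk RNA, a lower level in every cell and fewer cells with a high level cannot be told apart.

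CRIM1, a transmembrane protein with cysteine-rich repeats that binds growth factors of the BMP family, had the pattern most like that of ANKRD1. CRIM1 had 392, 295 and 310 CPM in siControl, 432, 321 and 291 in siNELFA and 337, 217 and 212 in siYAP. The siNELFA+siYAP libraries had 205, 203 and 196. The siNELFA+siYAP libraries were all below those of the other groups. The siYAP library of each number was below its siControl counterpart, as in 18.4% of all genes. Its mean in siNELFA+siYAP was 60.6% of that in siControl (log2 fold change -0.74 ± 0.14, edgeR adjusted p = 0.0735). This did not pass the threshold of 0.05 in edgeR, but passed in DESeq2 (adjusted p = 0.00134) and in edgeR without siControl replicate 1 (-0.59 ± 0.06, adjusted p = 2.62e-06). In siYAP the log2 fold change was -0.39 ± 0.24, and -0.41 ± 0.10 with the block (adjusted p = 0.487). Over 12 libraries ANKRD1 and CRIM1 correlated with Pearson's r = 0.96, the highest among 45 pairs of the 10 genes, and after removal of the group means r was still 0.95. The points share the shift of replicate 1, so the correlation is a description and not a test.

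**Figure D2:**
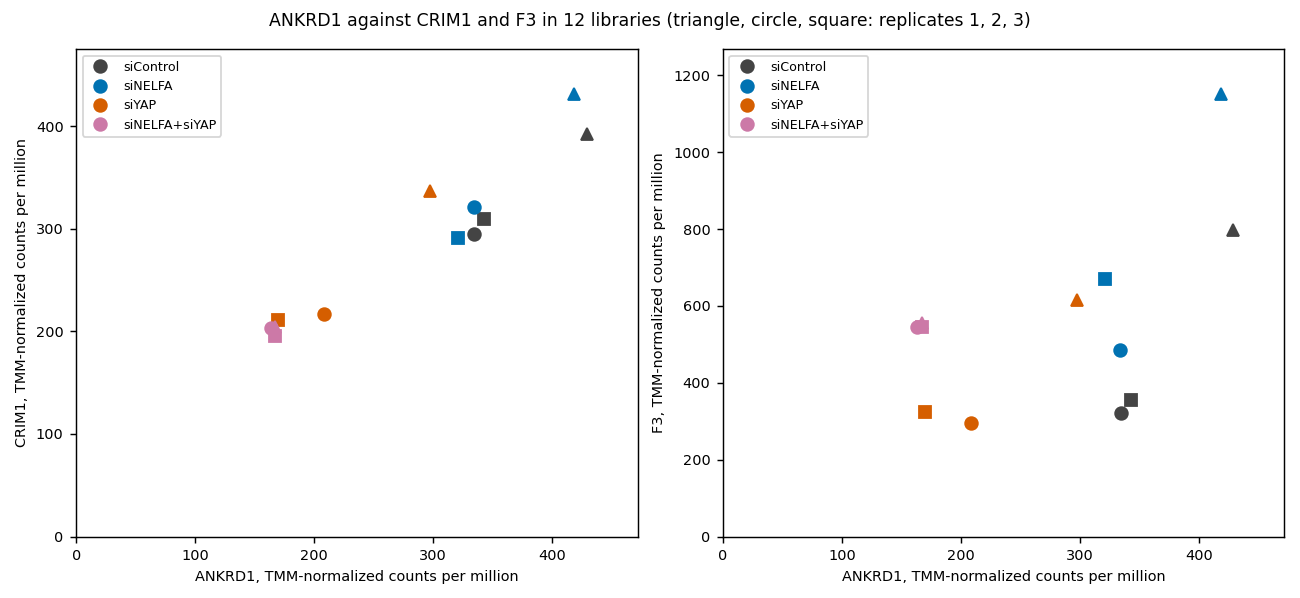
CRIM1 (left) and F3 (right) against ANKRD1 in the 12 libraries, all in CPM, with colours for the 4 groups and symbols for replicates 1, 2 and 3. CRIM1 is low where ANKRD1 is low, while F3 is at 545 to 555 in siNELFA+siYAP, where ANKRD1 is at 163 to 167.

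NUAK2 had higher means in both groups that received the NELFA pool. It encodes a kinase of the AMPK family that acts on actin and has been described as feeding back on YAP. NUAK2 had 6.82, 7.76 and 12.4 CPM in siControl and 20.4, 9.69 and 26.0 in siNELFA. It had 9.43, 5.99 and 8.82 in siYAP and 19.6, 17.7 and 17.5 with both pools, so the means were 18.7 ± 8.28 and 18.3 ± 1.17 with the NELFA pool and 8.98 ± 2.97 and 8.08 ± 1.83 without it. All siNELFA+siYAP libraries were above all siControl and all siYAP libraries, while siNELFA and siControl overlapped. The siNELFA libraries had 2.99, 1.25 and 2.10 times the siControl library of the same number. The log2 fold change was 1.05 ± 0.41 (edgeR adjusted p = 1.00), and with the block NUAK2 rose by 0.98 ± 0.22 (adjusted p = 0.0226). It was 0.84 ± 0.41 without the replicate 1 libraries and did not pass (edgeR adjusted p = 0.398). In siNELFA+siYAP it was 1.00 ± 0.24 against siControl (edgeR adjusted p = 0.107, DESeq2 0.00576) and 1.17 ± 0.21 against siYAP (edgeR adjusted p = 0.127, DESeq2 0.00016). YAP1 loss alone gave -0.16 ± 0.33, and -0.44 ± 0.29 without the replicate 1 libraries. NUAK2 is the least abundant of the 10 genes, with 63 to 457 counts per library.

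F3, which encodes tissue factor, the cell-surface starter of coagulation, was also higher in siNELFA than in siControl at every replicate number. Of all genes, 22.1% were higher at every number. F3 had 798, 321 and 355 CPM in siControl, 1152, 487 and 669 in siNELFA and 617, 295 and 324 in siYAP. Both pools together gave 555, 546 and 545. Replicate 1 was 1.99 to 2.36 times the mean of replicates 2 and 3 in the first 3 groups, so the groups overlapped. Within each number, siNELFA was 1.44, 1.51 and 1.89 times siControl. The log2 fold change was 0.65 ± 0.44 (edgeR adjusted p = 1.00), and F3 rose by 0.68 ± 0.10 with the block (adjusted p = 0.00255). The value without the replicate 1 libraries was 0.78 ± 0.15 and did not pass (edgeR adjusted p = 0.0902). In siYAP it was -0.27 ± 0.43, or -0.21 ± 0.10 with the block (adjusted p = 0.556). The siNELFA+siYAP value depended on siControl replicate 1: it was 0.14 ± 0.34 with that library and 0.69 ± 0.06 without it (edgeR adjusted p = 6.15e-07). Leaving out siControl replicate 2 gave -0.083.

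AMOTL2 was above siControl in siNELFA at all 3 replicate numbers, as were 22.1% of all genes. AMOTL2 was below siControl in siYAP at 2 of 3, and siNELFA+siYAP lay between the 2 knockdowns. It encodes an angiomotin-like scaffold that binds YAP. AMOTL2 had 91.7, 171 and 153 CPM in siControl, 169, 186 and 204 in siNELFA and 104, 121 and 110 in siYAP. With both pools it had 130, 131 and 137. Leaving siControl aside, the 3 knockdown groups did not overlap, with siNELFA highest and siYAP lowest. Against siControl the log2 fold change was 0.43 ± 0.24 in siNELFA (0.47 ± 0.13 and adjusted p = 0.0509 with the block) and -0.31 ± 0.25 in siYAP. Without the replicate 1 libraries the values were 0.28 ± 0.11 and -0.49 ± 0.11. In siNELFA+siYAP it was -0.07 ± 0.21, and -0.29 ± 0.07 without siControl replicate 1 (edgeR adjusted p = 0.00507).

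AMOTL1, the paralog of AMOTL2, had the opposite sign in siNELFA and a value near 0 in siYAP. AMOTL1 had 150, 242 and 180 CPM in siControl, 132, 193 and 147 in siNELFA and 182, 238 and 185 in siYAP. The siNELFA+siYAP libraries had 159, 147 and 152. The siNELFA library was below siControl at each number (0.883, 0.796 and 0.817 times), as in 22.1% of all genes. All siNELFA+siYAP libraries were below all siYAP libraries. The log2 fold change against siControl was -0.27 ± 0.23 in siNELFA (-0.27 ± 0.09 and adjusted p = 0.126 with the block) and 0.08 ± 0.23 in siYAP. In siNELFA+siYAP it was -0.33 ± 0.18 (edgeR adjusted p = 0.366), and -0.47 ± 0.09 without siControl replicate 1 (adjusted p = 0.00181).

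AXL and ARHGEF17 were above siControl in siNELFA at all 3 replicate numbers (22.1% of all genes), without passing the test. AXL, a receptor tyrosine kinase of the TAM family, had 833, 1256 and 1282 CPM in siControl, 1142, 1454 and 1460 in siNELFA and 985, 1220 and 1256 in siYAP. Both pools together gave 1303, 1328 and 1317. Both groups with the NELFA pool had the higher means, and siYAP was at 0.03 ± 0.21 against siControl, or -0.033 ± 0.08 without the replicate 1 libraries. Its level in siNELFA was 0.27 ± 0.21 above siControl on the log2 scale (0.29 ± 0.09 and adjusted p = 0.082 with the block). ARHGEF17 had 48.2, 56.3 and 48.9 in siControl, 78.2, 65.4 and 61.5 in siNELFA and 79.0, 46.9 and 38.1 in siYAP. With both pools it had 45.4, 48.7 and 44.6. It was the single gene of the 10 whose siNELFA libraries were all above those of siControl (0.42 ± 0.17, edgeR adjusted p = 1.00, and 0.41 ± 0.13 with adjusted p = 0.0801 with the block), against 6.24% of all genes. Without the replicate 1 libraries it was 0.28 ± 0.13. In siYAP ARHGEF17 was at 0.09 ± 0.28, and at -0.31 ± 0.14 without these libraries, and in siNELFA+siYAP the value against siControl was -0.16 ± 0.12.

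PTPN14, a phosphatase that binds YAP, had 538, 638 and 657 CPM in siControl, 502, 561 and 563 in siNELFA and 503, 599 and 605 in siYAP. The siNELFA+siYAP libraries had 529, 561 and 559. Every siNELFA and siYAP library was below the siControl library of its number, by log2 differences of -0.22 to -0.10 in siNELFA and -0.12 to -0.09 in siYAP. Of all genes, 22.1% were lower at every number in siNELFA and 18.4% in siYAP. Against siControl its log2 fold change was -0.17 ± 0.15 for siNELFA and -0.11 ± 0.17 for siYAP. With both pools it was -0.16 ± 0.11, and -0.24 ± 0.05 without siControl replicate 1 (edgeR adjusted p = 0.00238). MYOF, a ferlin of membrane repair, had 1010, 744 and 665 in siControl, 832, 743 and 684 in siNELFA and 868, 723 and 613 in siYAP. Both pools together gave 638, 642 and 638. Its siNELFA+siYAP libraries were all below those of siControl (-0.35 ± 0.17, edgeR adjusted p = 0.319), with replicate 3 of siControl only slightly above. Without siControl replicate 1 the value was -0.14 ± 0.05 (edgeR adjusted p = 0.0654).

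**Figure D3:**
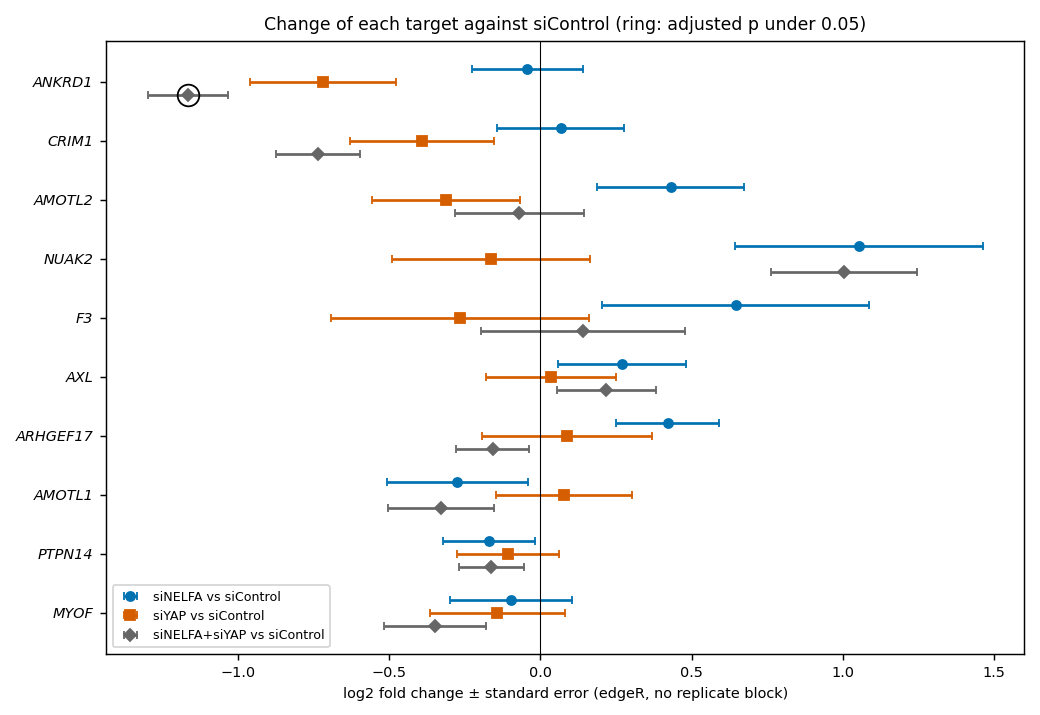
Log2 fold change against siControl (horizontal axis) of the 10 targets in siNELFA, siYAP and siNELFA+siYAP, with bars of 1 standard error from edgeR without a block. The ring marks ANKRD1 in siNELFA+siYAP (-1.17), the one value past an adjusted p of 0.05. The 3 comparisons share the siControl libraries.

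Counted over the 10 genes, 7 had a log2 fold change below 0 in siYAP, where 50.2% of all genes did, with a median of -0.15. ANKRD1 alone had all siYAP libraries below all siControl libraries, as 3.64% of all genes did. At all 3 replicate numbers, 5 of the 10 were lower in siYAP (18.4% of all genes) and 0 higher (18.2%). edgeR called 0 of the 10 at an adjusted p of 0.05 (0.00578% of all genes were called), 1 at an unadjusted p under 0.05 (ANKRD1, against 0.549% of all genes that were lower at that level), and DESeq2 called 0 (0.0116% of all genes). In siNELFA 4 were below 0, where 50% of all genes were, and the median was 0.17. At all 3 replicate numbers, 5 of the 10 were higher in siNELFA (22.1% of all genes) and 3 lower (22.1%). Here edgeR called 0 of the 10 (0.00564% of all genes) and 2 at an unadjusted p under 0.05 (NUAK2 and ARHGEF17, against 2.25% of all genes that were higher at that level), and DESeq2 called 0 (0.152%). With the block, 2 of the 10 rose in siNELFA (F3 and NUAK2) against 2.76% of all genes, and 0 of the 10 passed in siYAP, where 0.0173% of all genes passed as lower. In siNELFA+siYAP 7 were below 0, where 52.6% of all genes were, with a median of -0.16. There, ANKRD1, CRIM1 and MYOF had all libraries below those of siControl (13.9% of all genes), and NUAK2 and AXL had all above (15.9%). Without siControl replicate 1, 7 of the 10 were called in siNELFA+siYAP, but so were 24.4% of all genes. The 7 were ANKRD1, CRIM1, AMOTL1, AMOTL2 and PTPN14, which fell, and F3 and NUAK2, which rose.

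The NELFA pool was set directly against the YAP1 pool in siNELFA against siYAP, which uses no siControl library. This difference joins the changes from both pools, so by itself it does not tell which loss a gene followed. Without the block edgeR called 0 of the 10 (0.0116% of all genes) and 3 at an unadjusted p under 0.05 (AMOTL2, ANKRD1 and NUAK2, against 2.69% of all genes that were higher at that level), and DESeq2 called AMOTL2 (adjusted p = 0.00497, against 0.446% of all genes). With the replicate number as a block, 7 of the 10 were higher in siNELFA than in siYAP, against 8.33% of all genes, and AMOTL1 was lower, against 7.44%. The differences with the block, on the log2 scale, were 1.16 ± 0.18 for NUAK2 (edgeR adjusted p = 8.04e-05), 0.90 ± 0.08 for F3 (3.98e-08), 0.74 ± 0.09 for AMOTL2 (1.58e-06) and 0.70 ± 0.09 for ANKRD1 (3.27e-06). CRIM1 followed with 0.47 ± 0.08 (edgeR adjusted p = 0.000206), ARHGEF17 with 0.39 ± 0.11 (0.0202) and AXL with 0.23 ± 0.07 (0.0341), and AMOTL1 differed by -0.36 ± 0.08 (0.00314). For ANKRD1 and CRIM1 the lower siYAP level, and for NUAK2 and F3 the higher siNELFA level, made the larger part of this difference. ARHGEF17 did not differ at number 1 (0.990 times) and was 1.39 and 1.62 times higher at numbers 2 and 3. Without the replicate 1 libraries and without the block, the differences of all 10 genes had the same signs, edgeR called 0 of them (0.219% of all genes), and the lowest adjusted p was 0.0509, for AMOTL2.

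**Figure D4:**
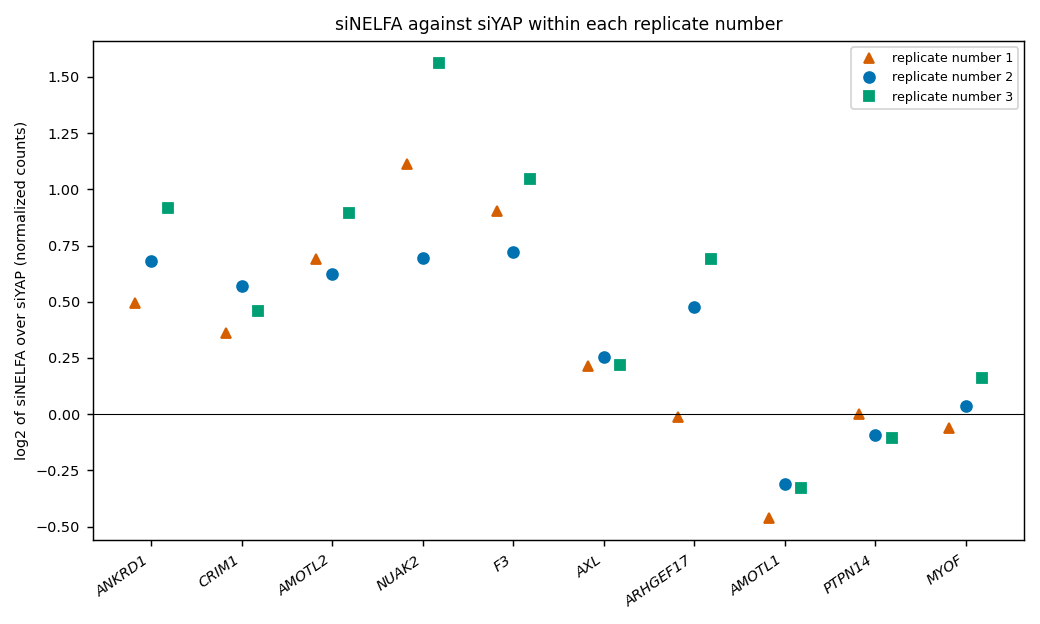
Log2 of the siNELFA level over the siYAP level (vertical axis) for libraries of the same replicate number, for each of the 10 targets. ANKRD1, CRIM1, AMOTL2, NUAK2, F3 and AXL are above 0 at all 3 numbers, as were 23.8% of all genes. AMOTL1 and PTPN14 are below 0 at all 3, as were 24.3% of all genes, PTPN14 by only -0.00042 at number 1. ARHGEF17 is close to 0 at number 1.

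Adding the YAP1 pool to the NELFA pool was read from siNELFA+siYAP against siNELFA. ANKRD1, CRIM1, AMOTL2, ARHGEF17 and MYOF were lower in all siNELFA+siYAP libraries than in any siNELFA library, 5 of the 10 against 7.4% of all genes. Their log2 fold changes were -1.11 ± 0.13, -0.79 ± 0.16, -0.49 ± 0.11, -0.57 ± 0.13 and -0.24 ± 0.11. edgeR called 0 of the 10 (0.00573% of all genes) and 4 at an unadjusted p under 0.05 (all but MYOF, against 3.93% of all genes that were lower at that level). DESeq2 called ANKRD1 (adjusted p = 7.19e-09) and CRIM1 (0.0175), against 0.258% of all genes. Without siNELFA replicate 1, edgeR called ANKRD1, CRIM1, AMOTL2 and ARHGEF17, against 1.25% of all genes. F3 was at -0.49 ± 0.28, the groups overlapped, and without siNELFA replicate 1 the value was -0.078.

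Adding the NELFA pool to the YAP1 pool was read from siNELFA+siYAP against siYAP. AMOTL2, NUAK2 and AXL were higher in all siNELFA+siYAP libraries than in any siYAP library (3 of the 10 against 13.8% of all genes), and ANKRD1, CRIM1 and AMOTL1 were lower (3 of the 10 against 12.7%). The log2 fold changes were 1.17 ± 0.21 for NUAK2, 0.25 ± 0.11 for AMOTL2 and 0.19 ± 0.12 for AXL. They were -0.45 ± 0.20 for ANKRD1, -0.35 ± 0.19 for CRIM1 and -0.41 ± 0.13 for AMOTL1. edgeR called 0 of the 10 (0.035% of all genes) and 2 at an unadjusted p under 0.05, AMOTL1 (8.85% of all genes were lower at that level) and NUAK2 (6.66% were higher), and DESeq2 called NUAK2 (4.49%). Without siYAP replicate 1, edgeR called NUAK2, F3 (0.83 ± 0.06) and AMOTL1 (-0.47 ± 0.09), against 16.5% of all genes. The siYAP replicate 1 library held the highest siYAP level of ANKRD1 and CRIM1, and without it their values were -0.19 and -0.088.

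Whether the effects of the pools add up was tested as an interaction over the 12 libraries. edgeR called 0 of the 10 and 0 of all 18525 genes, and 0 of the 10 had an unadjusted p under 0.05, against 1.11% of all genes below 0 and 0.653% above. DESeq2 called 0 of the 10. The values farthest from 0 were those of ARHGEF17 (-0.66 ± 0.32 log2), CRIM1 (-0.41 ± 0.29) and ANKRD1 (-0.40 ± 0.28). Without the replicate 1 libraries they were -0.17 ± 0.16, -0.12 ± 0.10 and -0.15 ± 0.12.

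A further 17 genes known as YAP and TEAD targets were looked at beside the 10, among them CTGF and CYR61 of the CCN family, which encode secreted matrix proteins. With the block, TGFB2 (0.54 ± 0.11, edgeR adjusted p = 0.0134), CTGF (1.29 ± 0.11, 7.14e-05), CYR61 (0.87 ± 0.12, 0.00238) and FSTL1 (0.53 ± 0.09, 0.00584) rose in siNELFA, against 2.76% of all genes, and IGFBP3 (-0.90 ± 0.18, 0.0129) and DLC1 (-0.43 ± 0.10, 0.0289) fell, against 2.45% of all genes. Without the replicate 1 libraries, and with no block, CTGF kept its call (1.30 ± 0.13, edgeR adjusted p = 0.0107) and the other 5 did not pass (0.0813 to 0.319). With single libraries left out and no block, IGFBP3 ranged from -2.26 to 0.55 and TGFB2 from -0.32 to 1.41. In siYAP, TGFB2 fell (-1.18 ± 0.12 with the block, edgeR adjusted p = 0.0185), but not without the replicate 1 libraries (adjusted p = 0.603), and 16 of the 17 were lower by any amount, as 50.2% of all genes were, with a median of -0.33. DLC1 fell in siNELFA+siYAP without a block (-0.97 ± 0.13, edgeR adjusted p = 0.0423). Between siNELFA and siYAP, 9 of the 17 were higher in siNELFA with the block, against 8.33% of all genes, namely TGFB2, WWC1, GADD45A, CTGF, CYR61, RBMS3, LATS2, FSTL1 and FJX1, and IGFBP3 was lower, against 7.44%.

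Of 19 genes of the YAP, TEAD and Hippo machinery, 18 were tested and AMOT was too low. TEAD1, the DNA-binding partner of YAP, fell in siNELFA (-0.51 ± 0.09 with the block, edgeR adjusted p = 0.0079) and in siNELFA+siYAP (-0.88 ± 0.10 without it, adjusted p = 0.0319). Like that of ANKRD1, the calls of TEAD1 and DLC1 in siNELFA+siYAP were lost with the block (adjusted p = 0.194 each), with limma on the TPM, without siControl replicate 2 and without any siNELFA+siYAP library (up to 0.389), and that of DLC1 also with all 12 libraries in 1 fit. The TEAD1 call in siNELFA was lost without the replicate 1 libraries (0.127). TEAD1 in siYAP was at -0.37 ± 0.16. All its siYAP libraries were below those of siControl, as were those of YAP1, LATS1 and MOB1B (3.64% of all genes), while TEAD3 had all above (4.12%). Apart from YAP1 itself, no other gene of this list passed against siControl. In siNELFA against siYAP, the Hippo kinase gene LATS2 (0.45 ± 0.10, edgeR adjusted p = 0.0029) and the Hippo adaptor gene SAV1 (0.50 ± 0.10, 0.000893) were higher with the block, as were 8.33% of all genes. LATS2 is also one of the 17 genes above. Both did not pass without the replicate 1 libraries (edgeR adjusted p = 0.245 and 0.200).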

How the data were processed

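RNA from MDA-MB-231 cells was depleted of ribosomal RNA and sequenced, 3 libraries in each of 4 siRNA groups. The count table was deposited without normalization, as whole reads that the authors assigned to genes with STAR in 2-pass mode on GRCh38 and featureCounts. TPM, also deposited and scaled by the authors within each library, serve here for levels and for an alternative. The FPKM table holds the same libraries in another scaling and was left out. The submitters' processing notes also list cutadapt, FastQC, Cufflinks and DESeq2.

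edgeR 4.0.16 in R 4.3.3 was run on the counts by its quasi-likelihood test with TMM factors, for each pair of groups on their 6 libraries and for the interaction on 12, with no block. Genes were kept by filterByExpr (minimum count 10, minimum total 15, minimum proportion 70%), and p-values were adjusted over every gene kept, by Benjamini and Hochberg, at a threshold of 0.05. The standard error is the absolute log2 fold change over the square root of F, and CPM come from a TMM scaling of all 12 libraries. Alternatives were DESeq2 1.42.0, RLE factors, a minimum count of 50, no filter, all 12 libraries in 1 fit, the replicate block, limma 3.58.1 on log2 of TPM plus 1 or 0.1, each library left out in turn, and, chosen after seeing the data, the replicate 1 libraries of siControl, siNELFA and siYAP left out together. The scripts were tested on simulated data, and figures were drawn with matplotlib 3.10.9.

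To check the pairing, each library's deviation from its group mean was correlated with that of the library of equal replicate number in another group, over 12971 genes with a mean of at least 50 counts. Pearson's r was 0.642 to 0.886 among siControl, siNELFA and siYAP, but -0.0523 to 0.0256 for pairs with siNELFA+siYAP. Replicate 1 stood apart in the first 3 groups and moved their group means. Replicates 2 and 3 therefore both deviated away from replicate 1, which raises r however these libraries are matched. The check shows the shared shift of the replicate 1 libraries and cannot show whether the numbers pair replicates 2 and 3. The paper's methods describe independent biological replicates, but the column names give the siNELFA+siYAP libraries as 1 to 3 under the number 1, so the spread of that group may be technical. Every pair of replicates differed beyond sampling noise, but siNELFA+siYAP replicates 1 and 3 the least. Their chi-squared per degree of freedom was 2.86, against 14.0 to 150 for the other pairs. The coefficient of variation between libraries, from edgeR, was 0.0613 in siNELFA+siYAP and 0.349 to 0.362 in the other groups. With replicates 2 and 3 only, it was 0.0606 and 0.125 to 0.155.

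The 10 genes and the lists were chosen with earlier results of these data known. The genes named are the 10, YAP1, NELFA and WWTR1, list members that passed in either fit, blocked or not, and the genes closest in pattern to a gene of the 10 that passed.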

Additional observations from a re-analysis of the deposited data

Results flagged for a closer look

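ARHGEF17 moved in opposite directions with NELFA loss in the 2 backgrounds: its mean in siNELFA was above that in siControl by 0.42 on the log2 scale, with all 3 siNELFA libraries above it, and all 3 siNELFA+siYAP libraries (44.6 to 48.7 CPM) were below the siYAP mean of 54.7. The difference between the backgrounds did not pass the test of the interaction (-0.66 ± 0.32 log2, edgeR adjusted p = 1.00). The siYAP mean rests on replicate 1, at 79.0 against 46.9 and 38.1 in replicates 2 and 3. Without that library, the siNELFA+siYAP value against siYAP changed from -0.25 to 0.12.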

How the results depend on the processing

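Counts of called genes depended strongly on the treatment of replicate 1. siNELFA against siControl gave 1 gene, and 924 with the replicate block (2 of the 10), 27 by DESeq2, 3 without a filter, 8 with 12 libraries in 1 fit, 5 and 12 by limma on TPM with pseudocounts of 1 and 0.1, and 18 without the replicate 1 libraries. siYAP against siControl gave 1, and 3 with the block, 2 by DESeq2, 3 and 17 by limma. siNELFA+siYAP against siControl gave 75 (1 of the 10), and 2 with the block (0 of the 10), 1348 by DESeq2 (3), 116 at a minimum count of 50, 381 without a filter (2), 9 and 20 by limma (0 and 0). Against siNELFA it gave 1, and 45 by DESeq2 (2), 26 without a filter (2), 8 and 24 by limma, and against siYAP 6, and 770 by DESeq2 (1), 1 with the block, 222 without a filter (1), 3 by limma with a pseudocount of 1. siNELFA against siYAP gave 2, and 2721 with the block (8), 77 by DESeq2 (1), 4 at a minimum count of 50, 6 without a filter, 17 with 12 libraries in 1 fit, 13 by limma with a pseudocount of 0.1 and 39 without the replicate 1 libraries. Leaving out each library gave 0 to 1 genes for siNELFA, 0 to 1 for siYAP, 0 to 4531 for siNELFA+siYAP against siControl (0 to 7 of the 10), 1 to 228 against siNELFA (0 to 4), 0 to 2937 against siYAP (0 to 3), 0 to 2 for siNELFA against siYAP and 0 for the interaction. For siNELFA+siYAP the highest counts came without siControl, siNELFA or siYAP replicate 1, and the cause was not tested. The block, where the numbers do not pair siNELFA+siYAP, is a hint only. The TPM moved the median of all genes by -0.19 (siNELFA) and -0.13 (siNELFA+siYAP) against siControl and by -0.12 in siNELFA against siYAP at a pseudocount of 1. Among values that did not pass the test, the sign turned on TPM for CRIM1 in siNELFA (-0.26 with either pseudocount, -0.063 relative to the median at 1), AMOTL1 (-0.064 and -0.065) and ARHGEF17 (-0.19 and -0.20) in siYAP, AXL in siNELFA+siYAP against siNELFA (0.041 and 0.042) and MYOF in siNELFA against siYAP (-0.12 with either), with the replicate block for NUAK2 in siNELFA+siYAP against siNELFA (0.067), and without the replicate 1 libraries for MYOF in siNELFA (0.028), AXL (-0.033) and ARHGEF17 (-0.31) in siYAP. Leaving out 1 library turned the sign of ANKRD1 (-0.17 to 0.085), MYOF (-0.22 to 0.10) and CRIM1 (-0.12 to 0.21) in siNELFA, of AXL (-0.13 to 0.14), F3 (-0.67 to 0.29), AMOTL1 (-0.064 to 0.28), MYOF (-0.28 to 0.062), NUAK2 (-0.32 to 0.13) and ARHGEF17 (-0.27 to 0.29) in siYAP, of F3 (-0.083 to 0.69) and AMOTL2 (-0.29 to 0.11) in siNELFA+siYAP against siControl, of AXL (-0.15 to 0.017), AMOTL1 (-0.16 to 0.13), NUAK2 (-0.35 to 0.28) and PTPN14 (-0.034 to 0.047) in siNELFA+siYAP against siNELFA, of ARHGEF17 (-0.45 to 0.12) in siNELFA+siYAP against siYAP and of MYOF (-0.071 to 0.18) in siNELFA against siYAP, and of IGFBP3 (-2.26 to 0.55) and TGFB2 (-0.32 to 1.41) in siNELFA. ANKRD1 in siNELFA+siYAP against siControl stayed between -1.23 and -1.03 when a library was left out. The lowest counts of the 10 genes, 63 to 457 per library, were those of NUAK2.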

Other observations

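Besides CRIM1, the genes whose levels were most like those of ANKRD1 over the 12 libraries were WTIP, which encodes a LIM protein of the Ajuba family, with Pearson's r = 0.945, and C6orf132, with r = 0.943, among 12970 genes averaging at least 50 counts. The libraries share the shift of replicate 1, so these values are a description. After removal of the group means, ANKRD1 correlated with F3 by 0.83, MYOF by 0.88 and ARHGEF17 by 0.82, and with PTPN14 by -0.90 and AXL by -0.83.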
